A study of Caenorhabditis elegans with 2 samples.

Results

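Genes for translation factors and for aminoacyl-tRNA synthetases were examined for promoter peaks of PES-1, a forkhead transcription factor, in early embryos of Caenorhabditis elegans. Members were taken by symbol from the protein-coding genes of Ensembl release 115. Symbols that start with eef-, eif-, ife-, iff- or ifg- gave 39 translation factor genes, and a single amino acid letter followed by ars- and a number gave 32 synthetase genes, 71 of 19973 protein-coding genes in all. The 2 classes are described apart, and cytosolic and mitochondrial synthetases were not separated. All samples came from 1 strain, RW12239, in which the endogenous pes-1 gene carried an insertion made by CRISPR (st12239[pes-1::TY1::EGFP::3xFLAG] IV). Embryos were obtained by egg bleaching and used whole at 1 hour, and chromatin was sonicated to 200 to 800 bp and precipitated with an antibody against GFP. The labels give 2 biological replicates of this 1 group. There was no second condition, so no test over samples could be made, and the strain was the only one profiled. Whole embryos were used, so a peak present weakly in every cell and one present strongly in few cells cannot be told apart.

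Translation factors are the proteins that bring the ribosome to the start codon of an mRNA and then move it along. Initiation factors (eIF) select the start codon with the initiator tRNA, and elongation factors (eEF) deliver each further tRNA and shift the ribosome. Aminoacyl-tRNA synthetases join each amino acid to its tRNA, so they set the supply of charged tRNA that the elongation factors use. Translation is needed in every cell, and early worm embryos start from maternal stores of the products of many of these genes.

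Data were lists of peaks with a signal per peak that the authors' peak caller gave. The main list, called conservative, held 1452 peaks all with an irreproducible discovery rate (IDR, an estimate of how often peaks so ranked fail to repeat in the other replicate) below 0.01, and these reduced to 1440 distinct summits. A gene had a promoter peak where a summit stood at most 1000 bp before or 200 bp after the 5' end of one of its transcripts. Of the 1440 summits, 644 were promoter summits. The depth of the libraries is unknown from these lists, and the intervals given cover the counting of genes alone. Positions refer to ce11 (WBcel235).

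Promoter peaks were present at 10 of the 39 translation factor genes (25.6%, 95% Wilson interval 14.6 to 41.1%), against 4.09% of all protein-coding genes (816 of 19973). For the synthetases the count was 4 of 32 (12.5%, 4.97 to 28.1%), against the same 4.09%. The translation factor genes with a peak included the elongation factor genes eef-1A.2 and eef-2. The others, initiation factor genes by symbol, were eif-1, eif-2Bgamma, eif-3.B, eif-3.C, eif-3.D, eif-3.I, eif-4A3 and ife-3. The synthetase genes with a peak were ears-2, qars-1, tars-1 and yars-2. These counts treat genes as independent, and no test of either class was made.

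The counts were lower under stricter lists. At an IDR of 0.001, 6 translation factors and 1 synthetase (ears-2) kept a peak, against 1.98% of all genes. From replicate 2 alone the counts were 6 and 2, against 3.42%, and from replicate 1 alone they were 9 and 2, against 3.09%. The 9 from replicate 1 included eef-1A.1 and eif-3.E. The optimal list, which holds more peaks, gave 10 and 4, against 4.77%. When each summit counted for its nearest gene alone, 6 and 3 genes kept a peak, against 2.97%, and eif-1, eif-3.D, eif-4A3, ife-3 and tars-1 lost theirs. A window from 2000 bp before to 500 bp after the 5' end gave 10 and 5, against 5.81%, the added gene being nars-1. Without summits within 200 bp of tRNA or snoRNA genes the counts stayed at 10 and 4, against 3.67%. Without those near snRNA and microRNA genes as well, a rule added after seeing the data, 9 and 3 were left, against 3.61%, and eif-2Bgamma and qars-1 lost theirs.

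**Figure D1:**
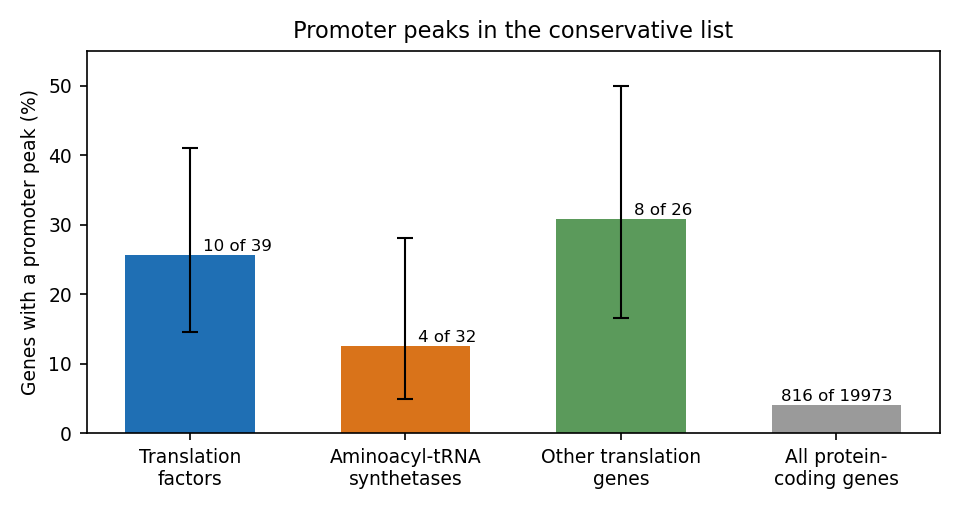
Share of genes with a promoter peak (vertical axis, percent) in the translation factors, the synthetases, a list of other translation genes and all protein-coding genes; lines are 95% Wilson intervals. The shares are 25.6%, 12.5% and 30.8% in the 3 lists and 4.09% over all protein-coding genes.

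Sequence around the summit is shown for 5 of the member peaks, to let the promoters of an elongation factor, 2 eIF3 subunits and 2 synthetases be compared. In none of them did the summit lie in an exon of a protein-coding gene or in a noncoding RNA gene, leaving out piRNA genes, which were not searched. Each runs 50 bp to either side of the summit, on the strand of the gene and up to the first exon where there is one. The sequences are from the RefSeq copy of WBcel235, and capitals mark CTTGCG or its reverse complement.
eef-1A.2 (chrX:7823290-7823390, plus strand): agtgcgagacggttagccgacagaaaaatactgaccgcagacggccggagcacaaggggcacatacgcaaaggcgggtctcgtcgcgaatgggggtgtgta
eif-3.B (chrII:14795104-14795204, plus strand): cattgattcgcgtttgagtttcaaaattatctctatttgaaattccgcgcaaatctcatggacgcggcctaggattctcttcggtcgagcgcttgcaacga
eif-3.D (chrIII:8971783-8971883, minus strand): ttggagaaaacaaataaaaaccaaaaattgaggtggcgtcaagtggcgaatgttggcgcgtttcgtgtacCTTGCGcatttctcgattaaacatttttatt
ears-2 (chrIV:390469-390546, minus strand): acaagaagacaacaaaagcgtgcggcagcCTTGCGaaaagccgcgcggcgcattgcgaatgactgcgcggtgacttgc
tars-1 (chrII:11694627-11694727, minus strand): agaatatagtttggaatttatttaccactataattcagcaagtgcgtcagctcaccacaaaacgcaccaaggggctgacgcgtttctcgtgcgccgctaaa

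The share of genes with a peak also differed with the spacing of genes. A gene was within 1000 bp of the next protein-coding gene upstream in 33 of 39 translation factors, in 25 of 32 synthetases and in 10370 of 19973 genes overall. Of these closely spaced genes, 8 of 33 translation factors (24.2%) and 4 of 25 synthetases had a peak, against 5.11% of all genes so placed. At a distance of 1000 bp or more, 2 of 6 translation factors and 0 of 7 synthetases had a peak, against 2.98% of all genes so placed.

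eIF3 is the multisubunit scaffold that binds the small ribosomal subunit and joins it to the other initiation factors and to the mRNA. Of its 11 genes, eif-3.B, eif-3.C, eif-3.D and eif-3.I had a promoter peak, 4 of 11 against 4.09% of all protein-coding genes. By count this was the highest of the translation factor groups, and it was also the group with the most genes. The peak at eif-3.C (chromosome I 9979790 to 9980047, between genes) had a deposited signal of 474 and ranked 52 among the 644 promoter summits. Replicate 1 gave 211 and replicate 2 gave 253, each taken from the nearest summit in that replicate's own ranked list. The peak at eif-3.B (chromosome II 14795075 to 14795216, between genes) had a signal of 255, with 84.7 in replicate 1 and 147 in replicate 2. At eif-3.D (chromosome III 8971668 to 8971997, between genes) the signal was 195, with 94.9 in replicate 1 and 96.1 in replicate 2. In these 3 genes, which lie on 3 chromosomes, the summit stood 252, 250 and 255 bp upstream of the annotated 5' end. The median over all promoter summits was 209.5 bp from the nearest 5' end of any gene. The spacing was picked out after the values were seen and was not tested. The eif-3.D summit was closer to R08D7.4, a gene on the opposite strand whose 5' end was 59 bp away. The peak at eif-3.I (chromosome I 2487831 to 2487957) had a signal of 196, with 86.6 in replicate 1 and 118 in replicate 2, and lay in an intron of eif-3.I. It stood 504 bp upstream of an internal 5' end of that gene, and it was lost when only the outermost 5' end was used.

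The other 7 eIF3 genes had no peak in the conservative list. For eif-3.E, replicate 1 on its own gave a thresholded peak (chromosome I 10642338 to 10642597) with a signal of 95.9, higher than the replicate 1 signals of eif-3.B and eif-3.D. No summit within 200 bp of it was listed in the ranked list of replicate 2 or in the list made from both replicates. The promoters of eif-3.G, eif-3.H and eif-3.J held weaker summits, with signals of 87.6, 66.1 and 66.7 in the full ranked list. None was listed there for eif-3.F, eif-3.K and eif-3.L.

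Among the elongation factors, 2 of 6 genes had a promoter peak, against 4.09% of all protein-coding genes, and at an IDR of 0.001 eef-1A.2 lost its peak and eef-2 kept it. eEF1A carries aminoacyl-tRNA to the ribosome and is encoded by eef-1A.1 and eef-1A.2, and eEF2 moves the ribosome to the next codon. At eef-2 (chromosome I 9163352 to 9163681) the summit lay 14 bp upstream of an annotated 5' end, with a signal of 192, 75.8 in replicate 1 and 96.3 in replicate 2. The same peak was in the promoter window of clsp-1, the claspin gene on the opposite strand, 251 bp away. At eef-1A.2 (chromosome X 7823175 to 7823504, between genes) the signal was 125, with 57.7 in replicate 1 and 88.3 in replicate 2, and the noncoding RNA gene R03G5.8 lay 45 bp from the summit.

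Its paralogue eef-1A.1 missed the list narrowly. The eef-1A.1 promoter held a summit 401 bp upstream of the 5' end, with a signal of 109 in the full ranked list, 52.1 in replicate 1 and 49.5 in replicate 2. That signal was above the 102 of eif-4A3 and of ife-3, the lowest among members in the conservative list, but its IDR was 0.0105, just past the threshold. It was in the thresholded list of replicate 1 and not in that of replicate 2. eif-4A3, just inside, had an IDR of 0.00892. The genes for the eEF1 exchange factor, which reloads eEF1A with GTP, had no conservative peak. eef-1B.2 had a ranked summit with a signal of 82.7, and none was listed for eef-1B.1 and eef-1G.

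Among the genes for initiator tRNA delivery, 1 of 10 had a promoter peak, against 4.09% of all protein-coding genes, and that peak was lost without summits near snRNA genes. eIF2 carries the initiator tRNA, and eIF2B reloads eIF2 with GTP. The peak assigned to eif-2Bgamma (chromosome II 6968261 to 6968590) had a signal of 247, with 86.8 in replicate 1 and 143 in replicate 2, and stood 778 bp upstream of the 5' end. Its summit lay inside the small nuclear RNA gene sup-39 (chromosome II 6968394 to 6968558), which is placed in an intron of C15F1.5, and no other protein-coding 5' end was closer than that of eif-2Bgamma. No conservative peak was found at the 3 eIF2 subunit genes, at the other eIF2B genes or at eif-2A and eif-2D, whose products act in alternative initiator tRNA delivery. Ranked summits at eif-2gamma (81.6), eif-2alpha (71.9), eif-2beta (57.4) and eif-2Bbeta (57.1) had IDR values of 0.682, 0.0851, 0.288 and 0.217.

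The remaining genes with initiation factor symbols gave 3 peaks, and each of these summits lay closer to another gene. By group, peaks were at 1 of 2 genes for scanning (eIF1 and eIF1A) and 1 of 2 for eIF4A3 and eIF6. Cap binding (eIF4E and eIF4G) gave 1 of 6 and eIF5A 0 of 2, against 4.09% of all protein-coding genes. At eif-1, whose product keeps the scanning ribosome open until it meets a start codon, the peak (chromosome II 4993835 to 4994164) had a signal of 115, with 46.0 in replicate 1 and 69.3 in replicate 2. Its summit was 420 bp from the eif-1 5' end but 2 bp from that of vps-24, on the opposite strand, and was also in the window of pigb-1. At eif-4A3, a helicase of the exon junction complex, the signal was 102 (chromosome I 636654 to 636983), with 43.8 in replicate 1 and 56.2 in replicate 2. That summit was 474 bp from the eif-4A3 5' end and 15 bp from that of vps-20, again on the opposite strand. vps-24 and vps-20 both encode subunits of the ESCRT-III membrane remodelling complex. At ife-3, one of 5 genes here for the cap-binding protein eIF4E, the signal was 102 (chromosome V 8539 to 8868), with 59.6 in replicate 1 and 58.9 in replicate 2. This summit, 876 bp upstream of the 5' end, lay in a coding exon of B0348.10, 35 bp from the 5' end of that gene. No conservative peak was found at eif-1.A, eif-6, the eIF5A genes iff-1 and iff-2, the eIF4G gene ifg-1, or ife-1, ife-2, ife-4 and ife-5.

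The synthetase class held the strongest peak of all members. The peak at ears-2, which RefSeq annotates as a mitochondrial glutamyl-tRNA synthetase gene, had a signal of 938 (chromosome IV 390346 to 390636, between genes). It ranked 13 among the 644 promoter summits and 35 among all 1440 summits, with a signal of 417 in replicate 1 and 523 in replicate 2. The summit lay 28 bp upstream of the ears-2 5' end and 64 bp upstream of that of uncp-18, which RefSeq annotates as a syntaxin-binding protein gene, in a space of 92 bp between ears-2 and the next gene upstream. No tRNA, snoRNA, snRNA or microRNA gene was within 200 bp. Leaving out piRNA genes and pseudogenes, which were not searched, the nearest noncoding gene was 16893 bp away.

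The other synthetase peaks were weaker. At yars-2, for tyrosine, the signal was 158 (chromosome IV 4712399 to 4712728), with 64.3 in replicate 1 and 80.8 in replicate 2, and the summit lay in an untranslated exon, 11 bp upstream of an internal 5' end of the gene. At qars-1, for glutamine, it was 114 (chromosome IV 15012172 to 15012501), with 45.3 in replicate 1 and 58.1 in replicate 2. The qars-1 summit lay in an intron of the gene, within the noncoding RNA gene Y41E3.458 and within 200 bp of a microRNA gene. At tars-1, for threonine, it was 110 (chromosome II 11694512 to 11694841), with 55.3 in replicate 1 and 67.7 in replicate 2. The tars-1 summit was 384 bp from an internal 5' end of that gene and 151 bp from that of kel-1, which overlaps tars-1 on the opposite strand. With the outermost 5' end alone, qars-1 and tars-1 lost their peak and 2 of 32 synthetase genes (6.25%) kept one, against 3.62% of all genes under that rule.

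Summits of any strength in the full ranked list, conservative peaks included, were present at a share of synthetase promoters near that of all genes. Any ranked summit stood at 16 of 32 synthetase promoters and at 27 of 39 translation factor promoters (69.2%), against 42.7% of all protein-coding genes. Of the 28 synthetase genes without a conservative peak, 16 had no promoter summit in that list, which holds 74874 peaks. They included the genes for valine (vars-1), histidine (hars-1), glycine (gars-1) and lysine (kars-1). The other 12 had summits with signals from 26.6 to 87.6 and a median of 46.3. The strongest was at sars-2, for serine, with an IDR of 0.490. Among the 29 translation factor genes without a conservative peak, 12 had no ranked summit, and the other 17 had signals from 19.4 at ifg-1 to 109 at eef-1A.1, with a median of 66.1.

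**Figure D2:**
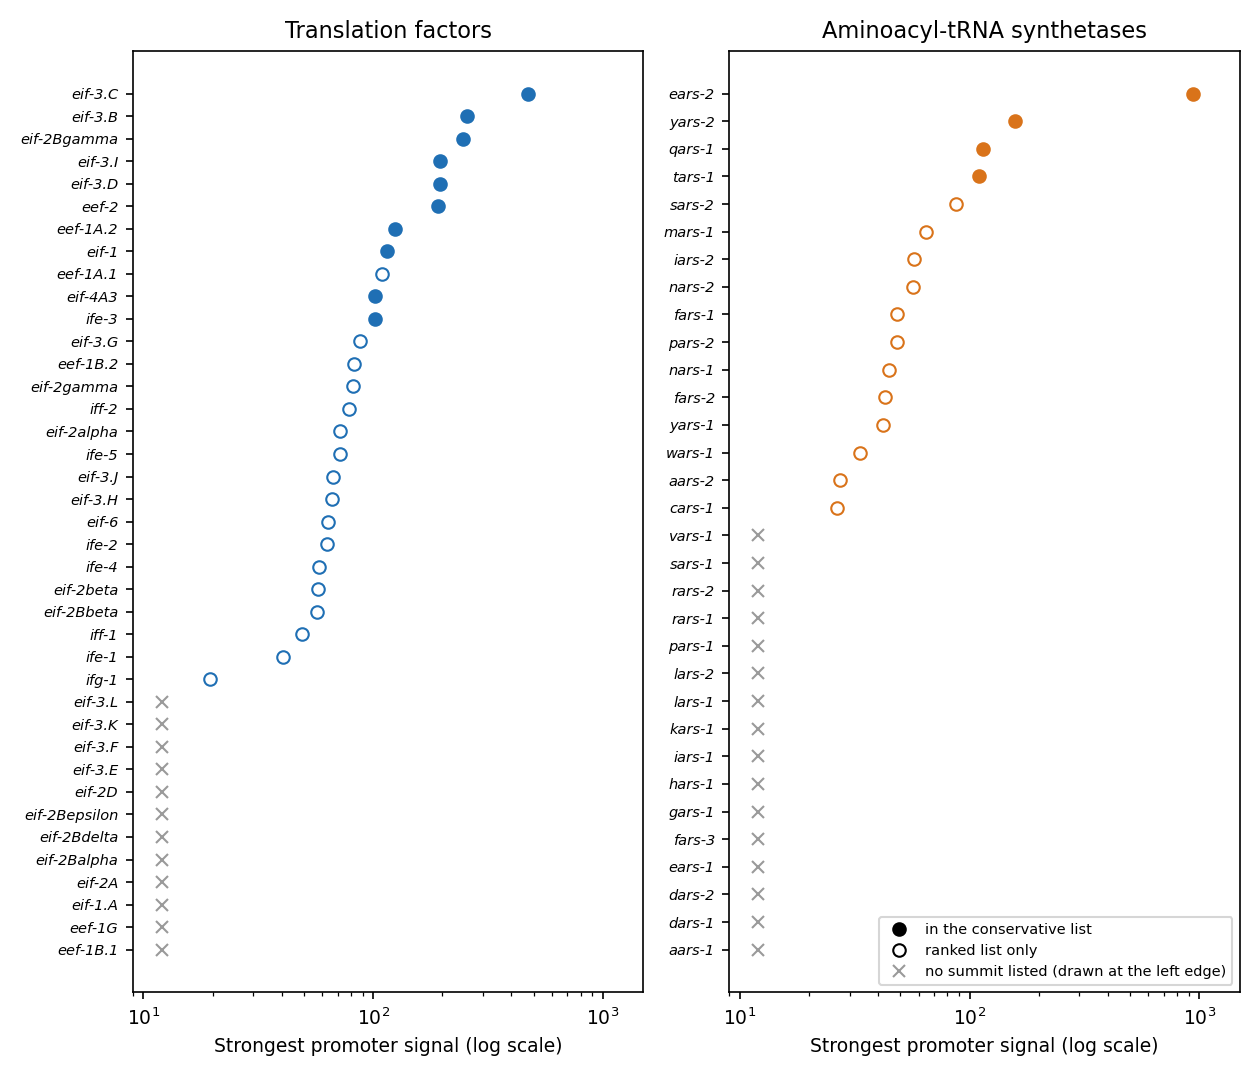
Deposited signal of the strongest summit in the promoter of each of the 71 genes (horizontal axis, log scale), with 39 translation factors on the left and 32 synthetases on the right. Filled points are in the conservative list, open points only in the full ranked list, and crosses, drawn at the left edge, mark the 12 translation factors and 16 synthetases with no summit listed; ears-2 stands apart at 938.

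Both replicates gave a summit within 200 bp of each of the 14 member peaks. Replicate 2 was higher at 13 of 14, by a median of 0.35 log2 units (0.40 at translation factors, range -0.02 to 0.80, and 0.33 at synthetases, range 0.29 to 0.36). Over 629 promoter summits found in both ranked lists the median was also 0.35, with replicate 2 higher at 522, so the members shared the offset of the whole set. The exception was ife-3, whose replicate 2 summit was 162 bp away from the conservative one. The lists of the single replicates were stricter. Of the 10 translation factor peaks, 5 were in both replicates' own thresholded lists (eef-2, eif-2Bgamma, eif-3.B, eif-3.C and eif-3.D) and 2 were in neither (eif-1 and eif-4A3). Of the 4 synthetase peaks, ears-2 was in both and qars-1 in neither. Over all 644 promoter summits, 48.3% were in both and 22.4% in neither.

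**Figure D3:**
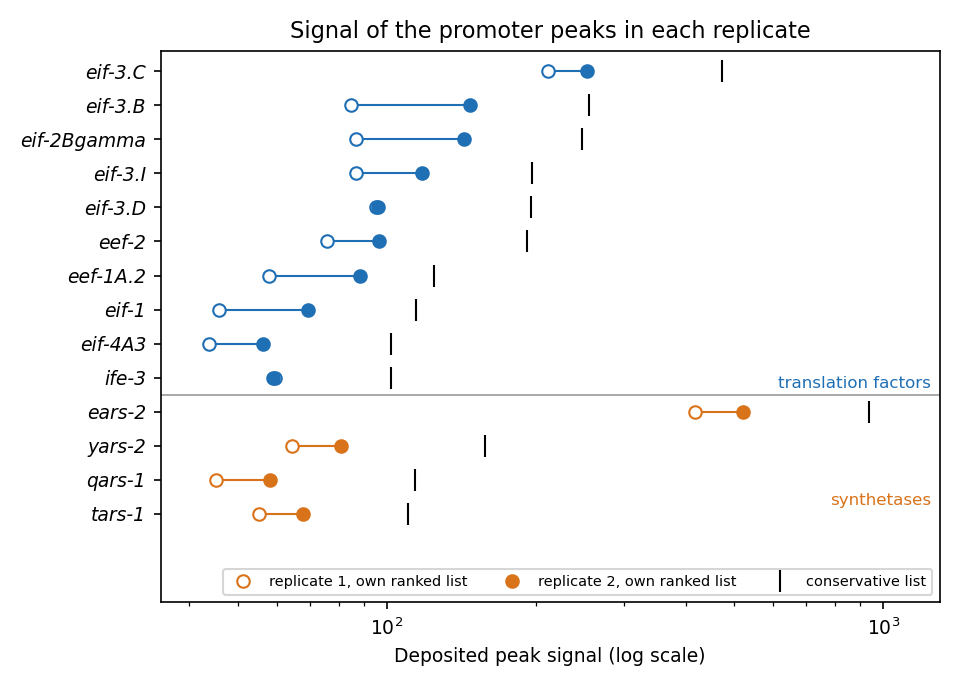
Deposited signal of each member's promoter peak (horizontal axis, log scale) in the ranked list of replicate 1 (open points), in that of replicate 2 (filled points) and in the conservative list (bars), with translation factors above the line and synthetases below. Replicate 2 lies to the right of replicate 1 at 13 of the 14 genes, and the conservative signal is higher than both.

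In strength the members were spread over the range of the promoter summits. The median signal was 194 at the translation factors (102 to 474) and 136 at the synthetases (110 to 938), against 157 over all 644 promoter summits. The 14 peaks were 14 different summits, and 7 of the 14 were also in the promoter window of a gene outside the classes. Of all 644 promoter summits, 32.5% were in the windows of several genes. That share counts each summit once. The member summits were reached through genes, and a shared summit can be reached through any of its genes, so these shares are unlike. The summit was a median of 367 bp from the member's own 5' end at translation factors and 130 bp at synthetases. Over all promoter summits the median was 209.5 bp, but from the nearest 5' end of any gene, so these measures are unlike. All 14 summits were upstream of the 5' end they were measured from, in a window that reached 1000 bp upstream and 200 bp downstream. The median over all promoter summits was also upstream. At eif-3.I, yars-2, qars-1 and tars-1 that 5' end was internal to the gene. Within 100 bp of the member's 5' end were 1 of 10 translation factor summits and 2 of 4 synthetase summits, against 21.1% of all promoter summits by the nearest gene. By the nearest gene, the summits of eif-1 (2 bp), eif-4A3 (15 bp) and ife-3 (35 bp) were downstream of the 5' end and within 100 bp. The eif-3.D summit (59 bp upstream) was also within 100 bp, and that of tars-1 was at 151 bp.

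**Figure D4:**
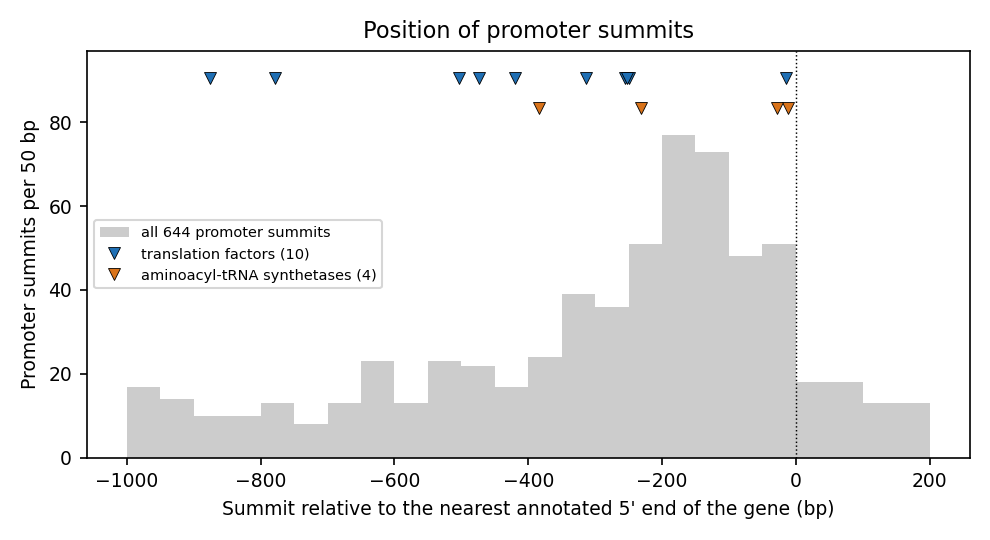
Position of promoter summits relative to the nearest annotated 5' end of the gene (horizontal axis, bp, negative upstream); grey bars count all 644 promoter summits per 50 bp and triangles mark the 10 translation factors (upper row) and the 4 synthetases (lower row). Grey bars use the nearest 5' end of any gene, and triangles use that of the member gene. The members lie between 876 and 11 bp upstream, with 3 eIF3 genes together near 250 bp and eif-3.I at 504 bp.

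Both strands of the 101 bp centred on each of the 14 summits were searched for short words. The forkhead core site GTAAACA was in 0 of the 10 translation factor windows and 0 of the 4 synthetase windows, against 0.776% of the 644 promoter summit windows. GAGAGA, in 14.6% of promoter windows, and GGTTCGA, part of the internal promoter of tRNA genes and in 6.99%, were also in 0 of 10 and 0 of 4. CTTGCGC was in 2 translation factor windows, those of eif-3.C and eif-3.D, and in 0 synthetase windows, against 6.37%. The shorter CTTGCG, which overlaps it and was added after the windows were seen, was in the same 2 translation factor windows and in those of ears-2 and qars-1, against 10.9%. In the sequences printed it stands in eif-3.D and ears-2 and is absent from eef-1A.2, eif-3.B and tars-1. TATAAA was in 1 window, that of ife-3, against 3.88%, and the GATA site (A, C or T, then GATA, then A or G) in 1, that of eif-3.B, against 13.04%. G and C made up a median of 48.5% of the translation factor windows and 47.03% of the synthetase windows, against 50.5% of all promoter windows. The range over members ran from 35.6% at yars-2 to 59.4% at ears-2 and eef-1A.2.

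A list of 30 symbols for release, poly(A) binding, mitochondrial translation and control of translation was used, of which 26 were in the annotation, and 8 of these 26 had a promoter peak (30.8%, 16.5 to 49.99%), against 4.09% of all genes. They were larp-1 (signal 246) for an RNA-binding protein of the La family, ifet-1 (188), which encodes a partner of eIF4E, and gfm-1 (172), for a mitochondrial elongation factor G. The others were gcn-1 (148), the activator of the eIF2 kinase GCN2, drr-2 (140), for an eIF4H-like protein, abcf-2 (134), pab-2 (127), for a poly(A)-binding protein, and tufm-2 (114), for a mitochondrial elongation factor Tu. Of these 8 peaks, 6 were also in the promoter window of a gene outside the list, those of drr-2 (with set-16), abcf-2 (with ant-1.1 and T27E9.2), ifet-1 (with the ribosomal protein gene rps-1), tufm-2 (with exoc-7), gfm-1 (with rict-1) and larp-1 (with wip-1). The summits at abcf-2, ifet-1, tufm-2 and larp-1 were nearer to the other gene. Over all 644 promoter summits, 32.5% were in the windows of several genes. That share counts each summit once, whereas these 8 peaks were reached through genes, so the shares are unlike. The release factor genes erfa-1 and erfa-3, the eIF4A gene inf-1, the eIF2 kinase genes gcn-2 and pek-1 and the kinase genes let-363 (TOR) and rsks-1 (S6 kinase) had none. At an IDR of 0.001, 2 of the 26 genes (7.69%), ifet-1 and larp-1, kept a peak, against 1.98% of all genes. This list was chosen with earlier results of these data known, and no test of it was made.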

How the data were processed

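The data were deposited peak lists from ChIP-seq of 2 biological replicates, in ce11 coordinates per the file lists deposited with them. Both replicates were set against 1 control file. The peak caller and the aligner, not given in the sources used here, could affect the values. The deposited signal is the authors' peak caller value, with no stated scaling between lists. The deposited score is the IDR rescaled (lowest 830 in the conservative list), and the deposited ranked list gives the -log10 of the global IDR. The 8 further unnamed columns of each ranked list were not used.

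Nuclear peaks were used, and in thresholded lists a summit at most 200 bp from a stronger one was dropped. Promoters followed Ensembl 115, and sequence and gene products came from the RefSeq copy of WBcel235 (WormBase release 298), the same assembly: all 71 members' coding sequences began with ATG at the annotated positions. Replicate signal was that of the nearest summit within 200 bp. Every member with a promoter peak is named, and of those without, those with a peak in a thresholded list or the strongest ranked summit of its class; other members were named after their values were seen. Intervals are 95% Wilson intervals (SciPy 1.17.1, Python 3.11.15). The members and lists were chosen with earlier results of these data known, and no enrichment test was made. Alternatives were other peak lists, IDR values, windows and gene assignments. The promoter rule was tested on simulated data.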

Additional observations from a re-analysis of the deposited data

How the results depend on the processing

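The optimal list and the removal of summits near tRNA and snoRNA genes changed no count. At an IDR of 0.001, 6 translation factors, 1 synthetase (ears-2) and 2 other translation genes had a promoter peak, against 1.98% of all genes. With the replicates used singly, the counts ran from 6 to 9 for translation factors, from 2 to 2 for synthetases and from 4 to 6 for other translation genes, against 3.42% of all genes without replicate 1 and 3.09% without replicate 2. When each summit counted for its nearest gene alone, 6 translation factors, 3 synthetases and 4 others kept a peak (2.97% of all genes), and eif-1, eif-3.D, eif-4A3, ife-3 and tars-1 lost theirs. A window of 500 bp upstream to 100 bp downstream left 7, 4 and 5 (2.98%), and 2000 to 500 bp gave 10, 5 and 8 (5.81%), the added gene being nars-1. The outermost 5' end alone left 9, 2 and 8 (3.62%). Leaving out summits near snRNA and microRNA genes too, chosen after seeing the data, left 9, 3 and 8 (3.61%), without eif-2Bgamma and qars-1. Other matching of replicate summits moved their median difference from 0.35 to 0.36 log2 units at most, and the median G and C content of the 14 windows was 53.9% within 25 bp and 42.3% within 100 bp. No paired analysis was possible because the study has 1 group. Read depth, the level of these genes' transcripts and other tagged strains were not analysed here, so their part in these counts was not tested.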

Other observations

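Across the 2080 words of 6 bp counted on both strands, ATTCGC (reverse complement GCGAAT) had the highest count in the 14 member windows above that given by its share of all promoter windows. It was in 7 of 14, those of eef-1A.2, eif-2Bgamma, eif-3.B, eif-3.D, eif-3.I, ears-2 and qars-1, against 4.81% of the 644 promoter summit windows. The word was picked for this count, so it is a description of these windows and was not tested.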
